A study of Mus musculus with 12 samples.

Results

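ATF4 and 9 genes that it is known to switch on during the integrated stress response were followed in the calvaria of newborn mice. The 10 genes were chosen by symbol, with no measured value in the rule but with earlier results of these data known. They were Atf4, Atf5, Asns, Chac1, Trib3, Ddit3, Psat1, Phgdh, Sesn2 and Slc7a11, and all 10 were among the 23715 genes measured. Of these, 8 passed the filter on low values (at least 1 FPKM in at least 3 of 12 mice) along with 13059 genes in all, whereas Trib3 and Slc7a11 did not. FPKM is a read count divided by the length of the transcript and by the size of the library, so that levels can be compared between genes.

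The integrated stress response joins several kinds of stress on 1 step of translation. Kinases that sense amino acid shortage, misfolded protein in the endoplasmic reticulum, viral RNA or lack of haem phosphorylate the alpha subunit of the initiation factor eIF2, which slows translation in general but lets the mRNA of ATF4 be translated. ATF4 is a bZIP transcription factor that pairs with C/EBP and other bZIP proteins and binds C/EBP-ATF response elements near genes of amino acid supply, redox balance and cell death. In osteoblasts, which secrete large amounts of collagen, ATF4 is known to promote amino acid import and to act with RUNX2 on osteocalcin. Since much of its control lies in translation, mRNA levels of its targets are often read as a sign of its activity.

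RNA of 12 C57BL/6 mice was sequenced, 1 library per mouse and 3 mice per group. The first set compared Med23 fl/fl; Prx1-Cre mice (Med23 MSC-/-, labelled P-KO) with control littermates (P-Ctrl), which the labels call WT and the paper describes as Med23 fl/fl. Med23 encodes a subunit of the Mediator complex, and Prx1-Cre acts in limb and craniofacial mesenchyme, so that blood, muscle and other cells of the tissue keep the gene. The second set compared Runx2+/- mice (R-Het), which carry 1 intact copy of the osteoblast transcription factor gene Runx2 in all cells, with WT mice (R-WT). The labels give calvaria of newborns, the methods parietal bone at postnatal day 2, and no treatment was given.

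The FPKM values summed to between 891329 and 1068933 per mouse, and the depth was estimated at 8000000 to 11700000 fragments. It was 10100000 to 11600000 in controls and lower in all Med23 MSC-/- mice, at 8700000 to 8900000. WT mice had 9100000 to 11700000 and Runx2+/- mice 8000000 to 10000000, with overlap. The part of depth in the values below was not tested. The labels could not be checked by the targeted genes. Med23 was at 5.99, 5.42 and 4.54 FPKM in the controls and 4.89, 5.74 and 5.28 in the mice labelled P-KO, and Runx2 was at 29.8, 37.7 and 27.3 FPKM in WT and 34.3, 30.4 and 35.7 in the mice labelled R-Het, but gene sums do not resolve a deleted exon. The osteoblast markers were abundant in every mouse (12 of 12 genes measured, summed 26959 to 58078 FPKM). By Xist, which only females express, 2 control mice and 1 WT mouse were female and the other 9 were male. Skeletal muscle markers varied most, from 26.3 to 1549 FPKM in controls, 665 to 4654 in Med23 MSC-/-, 2139 to 6387 in WT and 30.9 to 209 in Runx2+/- mice. In bulk tissue, fewer cells of a type and less RNA per cell cannot be told apart, and the p-values cover only the spread between these mice.

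The C/EBP-ATF response element was looked for in the promoters of the 10 genes, because it is the DNA through which ATF4 is known to reach its targets. The letters searched were TGATGNAA, read on both strands (TTNCATCA on the other), in RefSeq windows of GRCm38.p6 from 250 bases before to 50 bases after each transcription start. All 10 genes had a window, and 4 of them (Asns, Chac1, Slc7a11 and Trib3) held a match. Counted by window, 4 of the 12 windows of these genes held a match, beside 1304 of all 32851 windows (3.97%). The 4 stretches are given 5′ to 3′ on the strand of the gene, with the match in capitals.
Asns, chr6:7693210-7693256, minus strand: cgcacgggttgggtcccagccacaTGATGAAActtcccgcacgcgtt
Chac1, chr2:119351025-119351080, plus strand: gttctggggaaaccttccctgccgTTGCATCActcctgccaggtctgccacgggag
Slc7a11, chr3:50443629-50443703, minus strand: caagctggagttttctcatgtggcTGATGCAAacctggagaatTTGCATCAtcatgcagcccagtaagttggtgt
Trib3, chr2:152344028-152344057, minus strand: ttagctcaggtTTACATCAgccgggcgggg
The match began 23 bases before the start in Asns and 193 bases before it in Chac1. Slc7a11 held a pair of matches, 66 and 47 bases before the start and in opposite orientation. In Trib3 the match began at base 15 of the transcript. The windows of the other 6 genes did not hold these letters, which says nothing of sites elsewhere in those genes.

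Atf4 was by far the most abundant of the 10 genes and the least variable. Its mRNA stood at 132, 139 and 138 FPKM in the 3 controls and at 142, 128 and 153 in the Med23 MSC-/- mice. In the Runx2+/- set it was at 138, 130 and 141 FPKM in WT and 131, 159 and 135 in Runx2+/- mice. The groups overlapped in both sets, and the highest of the 12 mice was 1.24-fold above the lowest. The log2 fold change of FPKM + 1 was 0.04 (95% interval -0.16 to 0.25, adjusted p = 0.811, limma) in Med23 MSC-/- and 0.05 (-0.17 to 0.28, adjusted p = 0.851) in Runx2+/- mice. The intervals correspond to 0.89- to 1.19-fold and 0.89- to 1.21-fold. Atf4 lies at chr15:80255184-80257545 of GRCm38.

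No member passed an adjusted p of 0.05 in either comparison. In Med23 MSC-/- mice 0 of the 8 tested members were called, where 1.57% of all tested genes were (205 of 13059, 1.01% higher and 0.559% lower), and none had an unadjusted p under 0.05 (21.3% of all genes). Of the Runx2+/- comparison, too, 0 of 8 were called, beside 1.89% of all genes (0.398% higher and 1.49% lower), and 1 member, Phgdh, had an unadjusted p under 0.05 (15.4% of all genes). The difference between both comparisons was called for 0 of 8 members and 0.153% of all genes (0.0613% more positive and 0.0919% more negative in Med23 MSC-/- than in Runx2+/- mice), with no member at an unadjusted p under 0.05 (15.3% of all genes). The members' median log2 fold change was 0.08 in Med23 MSC-/- mice (all genes 0.06) and -0.03 in Runx2+/- mice (all genes 0.02), and both signs turned when every mouse was scaled to the same FPKM sum (-0.01 and 0.01).

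**Figure D1:**
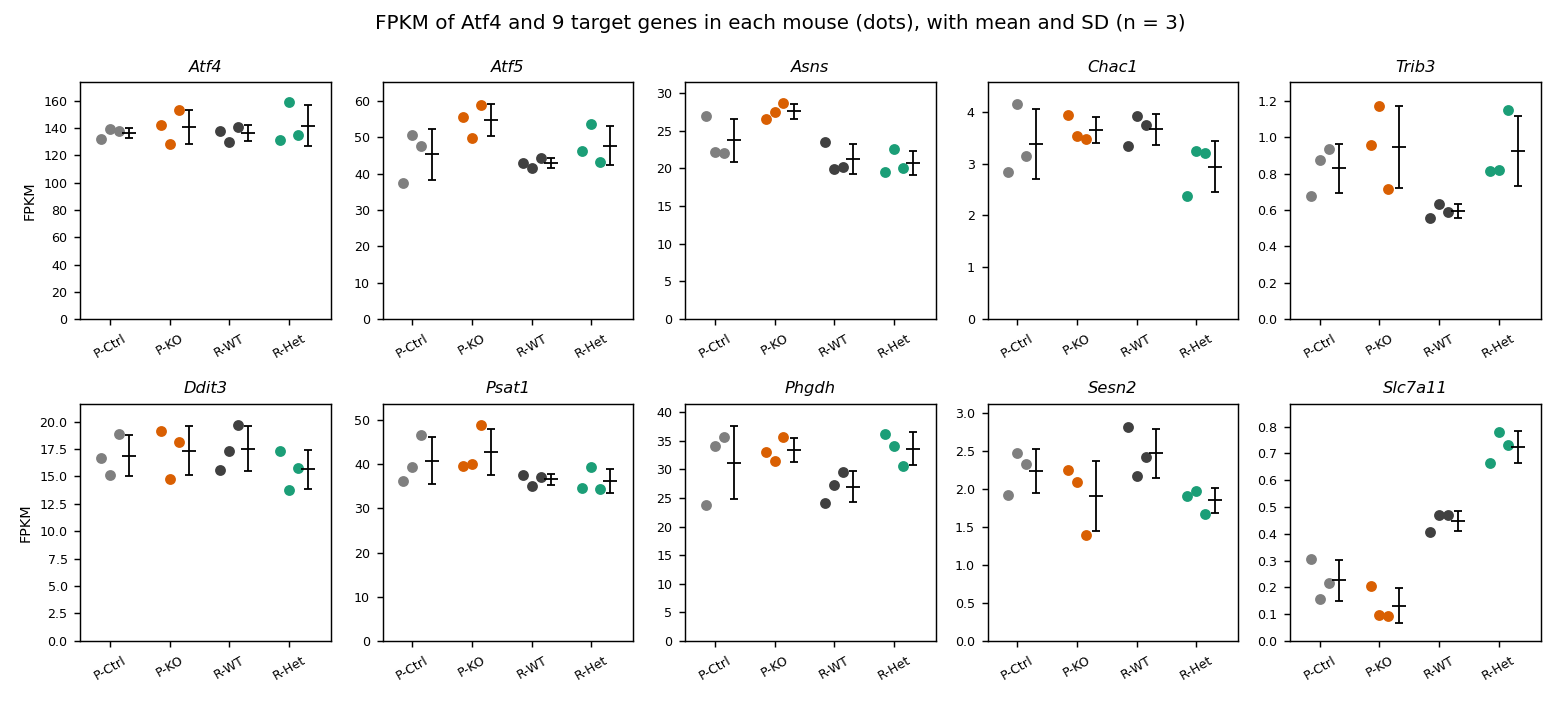
FPKM (vertical axes, linear, from 0) of the 10 genes in each mouse (dots), by group (horizontal axes), with the mean and SD of the 3 mice (bars). In the Med23 MSC-/- set the dots of both groups overlap in all 10 panels, whereas R-Het and R-WT separate for Chac1, Sesn2, Phgdh, Trib3 and Slc7a11.

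Among the transcription factors, Atf5, a bZIP protein whose translation is controlled like that of ATF4, had 37.4, 50.7 and 47.7 FPKM in controls and 55.5, 49.9 and 58.7 in Med23 MSC-/- mice. The lowest Med23 MSC-/- mouse fell just below the highest control, and the log2 fold change was 0.28 (95% interval -0.02 to 0.58, adjusted p = 0.267). WT mice had 43, 41.6 and 44.3 FPKM of Atf5 and Runx2+/- mice 46.2, 53.6 and 43.1, again with overlap (log2 fold change 0.14, adjusted p = 0.553). Nearly all of the Atf5 signal was assigned to a RefSeq entry annotated as non-coding. The coding entry held 0.251% to 6.22% of the gene's FPKM over the 12 mice, and its levels did not separate the groups (exact two-sided permutation test, p = 0.7 in each set).

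Ddit3 encodes CHOP, the bZIP factor linked to cell death under lasting stress. It was at 16.7, 15.1 and 18.9 FPKM in controls and 19.1, 14.8 and 18.1 in Med23 MSC-/- mice, a log2 fold change of 0.03 (95% interval -0.26 to 0.32, adjusted p = 0.902). WT mice had 15.6, 17.3 and 19.7 FPKM and Runx2+/- mice 17.3, 13.8 and 15.8 (log2 fold change -0.15, adjusted p = 0.588). CHOP mRNA thus overlapped between the groups of both sets. Trib3, a pseudokinase that CHOP and ATF4 induce and that dampens their activity, was at or below 1.17 FPKM in every mouse. It had 0.677, 0.875 and 0.936 FPKM in controls and 0.959, 1.17 and 0.717 in Med23 MSC-/- mice, which overlapped. In WT mice it had 0.558, 0.634 and 0.591 FPKM, below all Runx2+/- mice at 0.813, 0.82 and 1.15. In a fit without the filter, the log2 fold change of Trib3 in Runx2+/- mice was 0.27, with an adjusted p of 0.254. An estimated 11 to 21 fragments per mouse lie behind these values.

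The enzymes of amino acid synthesis were expressed at intermediate levels. Asns, asparagine synthetase, had 27, 22.1 and 22 FPKM in controls and 26.6, 27.5 and 28.6 in Med23 MSC-/- mice. A single control mouse lay within the Med23 MSC-/- range, and the log2 fold change was 0.22 (95% interval -0.02 to 0.45, adjusted p = 0.269). WT mice had 23.5, 19.9 and 20.2 FPKM of Asns and Runx2+/- mice 19.5, 22.5 and 20.1, a log2 fold change of -0.03 (adjusted p = 0.913). Phgdh, which catalyses the first step of serine synthesis, overlapped between controls (23.8, 34.1 and 35.7 FPKM) and Med23 MSC-/- mice (33, 31.5 and 35.7 FPKM). In the other set all WT mice (24.2, 27.3 and 29.5 FPKM) lay below all Runx2+/- mice (36.2, 34.1 and 30.6 FPKM). The log2 fold change of Phgdh in Runx2+/- mice was 0.31 (95% interval 0.07 to 0.55), with an unadjusted p of 0.0182 and an adjusted p of 0.203 by limma.

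Psat1, the next enzyme of serine synthesis, overlapped between the groups of both sets. It had 36.2, 39.5 and 46.6 FPKM in controls and 39.6, 40 and 48.9 in Med23 MSC-/- mice (log2 fold change 0.07, adjusted p = 0.782), and 37.5, 35.2 and 37.1 in WT and 34.7, 39.3 and 34.5 in Runx2+/- mice (log2 fold change -0.02, adjusted p = 0.942). A minor RefSeq transcript of Psat1 was lower in all Med23 MSC-/- mice (0.198, 0.0493 and 0.194 FPKM) than in all controls (0.491, 1.25 and 1.18 FPKM). It made up 1.36% to 3.17% of the gene in controls and 0.123% to 0.499% in Med23 MSC-/- mice. Of 19286 transcripts above 0 in every mouse, 6.76% were lower in all Med23 MSC-/- mice than in all controls, and this one was chosen after its values were seen. In the other set the transcript overlapped, with 0.994, 0.453 and 1.27 FPKM in WT and 0.603, 0.331 and 0.73 in Runx2+/- mice (exact two-sided permutation test, p = 0.3). For the Med23 MSC-/- set the exact two-sided permutation test of 3 mice against 3 gave p = 0.1, the smallest it allows, and an estimated 1.0 to 32.1 fragments per mouse lie behind the transcript.

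Chac1 and Sesn2 both encode outputs of the stress response, an enzyme that breaks down glutathione and a leucine sensor that restrains mTORC1. Chac1 was at 2.84, 4.14 and 3.15 FPKM in controls and 3.94, 3.53 and 3.47 in Med23 MSC-/- mice (log2 fold change 0.10, adjusted p = 0.724). In the Runx2+/- set it was at 3.33, 3.91 and 3.74 FPKM in WT and lower in every Runx2+/- mouse at 2.37, 3.25 and 3.2. The log2 fold change of Chac1 was -0.25 (95% interval -0.54 to 0.05, adjusted p = 0.411). Sesn2 was at 1.92, 2.48 and 2.33 FPKM in controls and 2.25, 2.1 and 1.39 in Med23 MSC-/- mice (log2 fold change -0.16, adjusted p = 0.592). WT mice had 2.82, 2.18 and 2.43 FPKM of Sesn2, above all Runx2+/- mice at 1.91, 1.98 and 1.67, with a log2 fold change of -0.28 (95% interval -0.57 to 0.00, unadjusted p = 0.0505, adjusted p = 0.326).

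**Figure D2:**
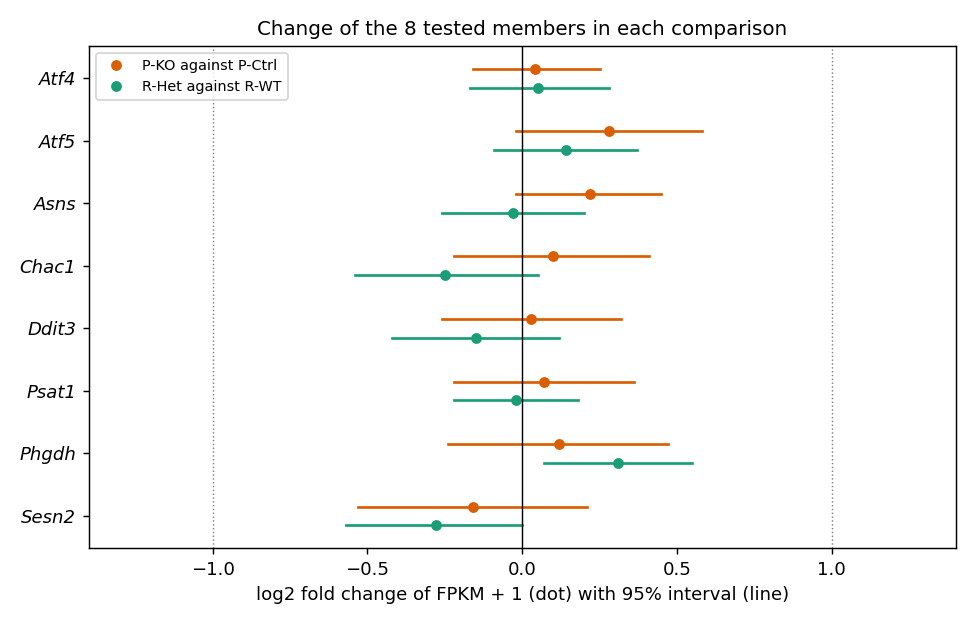
Log2 fold change of FPKM + 1 (horizontal axis) with its 95% interval for the 8 tested members (rows), in P-KO against P-Ctrl and R-Het against R-WT; dotted lines mark a change of 1 log2 unit. All intervals lie between the dotted lines, and that of Phgdh in Runx2+/- mice, 0.07 to 0.55, lies wholly above 0.

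Slc7a11, the cystine transporter of system xc-, was the least abundant of the 10 genes and differed most between mice, with the highest mouse 8.31-fold above the lowest. It was at 0.307, 0.155 and 0.218 FPKM in controls and 0.206, 0.0956 and 0.0939 in Med23 MSC-/- mice, with means of 0.226 ± 0.0763 and 0.132 ± 0.0639 (SD, n = 3). WT mice had 0.406, 0.47 and 0.47 FPKM and Runx2+/- mice 0.663, 0.78 and 0.73, with means of 0.449 ± 0.0369 and 0.724 ± 0.0587 (SD, n = 3). All Runx2+/- mice lay above all WT mice, whereas the Med23 MSC-/- and control mice overlapped. The ratio of the mean levels was 1.61 in the Runx2+/- set and 0.582 in the Med23 MSC-/- set.

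Since Slc7a11 did not pass the filter, it was fitted without it. Its log2 fold change was 0.25 in Runx2+/- mice (95% interval 0.15 to 0.35, unadjusted p = 0.00119, adjusted p = 0.117), and 0.59 with a pseudocount of 0.1 in place of 1, which shrinks low genes less. For Slc7a11 in Med23 MSC-/- mice the value was -0.12 (adjusted p = 0.42). The difference between both comparisons was -0.37 (95% interval -0.55 to -0.19, unadjusted p = 0.00106, adjusted p = 0.125) for Slc7a11, and thus missed the threshold over all genes. Between 8 and 66 estimated fragments per mouse lie behind these levels. Every mouse of the Runx2+/- set, WT included, had more Slc7a11 (0.406 to 0.78 FPKM) than every mouse of the Med23 MSC-/- set (0.0939 to 0.307 FPKM), while the other 9 members overlapped between the sets. Of all genes, 0.758% of those past the filter and 0.605% of those fitted without it had no overlap between the sets. The sets come from separate crosses, so the cross and the handling of its libraries cannot be told apart.

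Thus no tested member separated the Med23 MSC-/- mice from controls, where 27.3% of all tested genes did (19.6% higher and 7.68% lower), and 3 of the 8 tested members (Phgdh, Chac1 and Sesn2) separated Runx2+/- from WT mice, where 21.1% of all tested genes did. Of those 3, Phgdh was higher (10.7% of all genes) and Chac1 and Sesn2 were lower (10.4% of all genes) in Runx2+/- mice. The exact two-sided permutation test of each gave p = 0.1, the smallest that 3 mice against 3 allow. Of the 8 tested members, 7 had a positive and 1 a negative log2 fold change in Med23 MSC-/- mice (61.3% of all genes positive), and 3 had a positive and 5 a negative one in Runx2+/- mice (56.1% of all genes positive). These signs are not called changes. Skeletal muscle markers moved with the Runx2+/- comparison (9 of 10 called lower, median log2 fold change -4.76), as did the osteoclast markers Ctsk (log2 fold change -0.63, adjusted p = 0.0859) and Acp5 (-0.65, adjusted p = 0.0612), which carried most of a macrophage and osteoclast list whose sum was 4745 to 6179 FPKM in WT and 3333 to 4031 in Runx2+/- mice (0 of 7 called). The macrophage markers Adgre1 (-0.05), Mrc1 (-0.05) and C1qa (-0.03), the values of that list nearest 0, overlapped. All 7 measured genes of the list had a negative log2 fold change (median -0.20). The muscle genes called were Acta1, Ckm, Myh3, Myh8, Mylpf, Myl1, Tnnt3, Tnnc2 and Tnni2, while Actn3 had -0.63 (adjusted p = 0.16). Erythroid markers were negative for 7 of 7 tested genes (median -1.07, 0 called). Their sums overlapped, at 18361 to 20982 FPKM in WT and 4777 to 19279 in Runx2+/- mice. Cartilage markers were positive for 7 of 8 genes (median 0.49, 0 called), and their sums overlapped as well. The part of these cell types in the members' values was not tested.

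The order of the members' levels was nearly the same in every mouse. By median FPKM over the 12 mice it ran Atf4, Atf5, Psat1, Phgdh, Asns, Ddit3, Chac1, Sesn2, Trib3 and Slc7a11. Neighbours held their order in 12 of 12 mice, except that Psat1 exceeded Phgdh and Phgdh exceeded Asns in 11 of 12 mice each. Over all mice the ranges of Atf4 and Atf5, of Ddit3 and Chac1, and of Sesn2 and Trib3 did not overlap, while those of the other neighbours did. The mean coefficient of variation within groups ran from 6.56% for Atf4 to 24.6% for Slc7a11. The mean z-score over the tested members was highest in P-KO mouse 3 (0.83) and P-KO mouse 1 (0.73) and lowest in P-Ctrl mouse 1 (-0.68) and R-Het mouse 3 (-0.67). P-KO mouse 3 held the highest value of 3 members, Atf5, Asns and Psat1, and the lowest of Sesn2 and Slc7a11.

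The 5 genes outside the 10 whose levels followed that mean z-score most closely over the 12 mice were Selenoh, Nmral1, Mydgf, Tmem208 and Mrps15, with Pearson's r from 0.905 to 0.956 and Spearman's rho from 0.839 to 0.944. They were picked as the highest of all tested genes, all values came from the same 12 libraries, and none of the 5 was called in either comparison.

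Upstream of ATF4, the genes of eIF2, its guanine nucleotide exchange factor eIF2B, its kinases and its phosphatases included a pair that passed the test. Of 15 tested genes, 2 rose (1.01% of all genes) and 0 fell (0.559%) in Med23 MSC-/- mice. Their median log2 fold change was 0.04 (all genes 0.06). In Runx2+/- mice 0 were called (median 0.04), beside 1.89% of all genes. Eif2s1 encodes the alpha subunit that the kinases phosphorylate. It had 31.6, 33.1 and 33.6 FPKM in controls and 47.6, 48.4 and 47.9 in Med23 MSC-/- mice, without overlap. The log2 fold change of Eif2s1 was 0.54 (SE 0.07, adjusted p = 0.0269, limma), whereas in Runx2+/- mice it was -0.02 (adjusted p = 0.937), and the difference between both was 0.56 (95% interval 0.31 to 0.81, adjusted p = 0.0676).

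Eif2s2, the beta subunit, moved alongside. It had 120, 126 and 137 FPKM in controls and 189, 173 and 188 in Med23 MSC-/- mice, a log2 fold change of 0.52 (SE 0.08, adjusted p = 0.0404), and 0.00 in Runx2+/- mice (adjusted p = 0.993). The gamma subunit Eif2s3x did not separate the groups, with 48.7, 71.9 and 77.3 FPKM in controls and 59.3, 61.6 and 58.9 in Med23 MSC-/- mice. It lies on the X chromosome, and its 2 highest controls were the females. In Runx2+/- mice the largest values of this list belonged to Eif2s3x (log2 fold change -0.23, adjusted p = 0.619) and Gcn1, the activator of the amino acid sensing kinase GCN2 (0.21, adjusted p = 0.514). The calls of Eif2s1 and Eif2s2 were lost when any 1 of the 6 mice was left out, with log2 fold changes of 0.51 to 0.55 and 0.47 to 0.57, and when every mouse was scaled to the same FPKM sum (adjusted p = 0.0817 and 0.0746). Most calls of this comparison were lost in that way, as 0 to 35 genes were called with 1 mouse left out, against 205 with all 6.

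Among the bZIP partners of ATF4 and its regulators in osteoblasts, 0 of 15 rose and 1 fell in Med23 MSC-/- mice (median log2 fold change -0.01). Of all genes, 1.01% rose and 0.559% fell there. In Runx2+/- mice 0 of the 15 were called (median 0.02), beside 1.89% of all genes. The gene that fell was Junb, an AP-1 subunit, from 32.2, 31.4 and 28.4 FPKM in controls to 16.6, 17.6 and 16.3 in Med23 MSC-/- mice. Its log2 fold change was -0.83 (SE 0.08, adjusted p = 0.0211). In the Runx2+/- set Junb was at 20.7, 22.7 and 26.2 FPKM in WT and 15.9, 8.99 and 17.4 in Runx2+/- mice, also without overlap but with an adjusted p of 0.166 (log2 fold change -0.72). The difference between both comparisons was -0.10 (95% interval -0.68 to 0.47, adjusted p = 0.895). Fos, which pairs with Junb, had a log2 fold change of -0.68 in Med23 MSC-/- mice (adjusted p = 0.218), and Cebpd, a C/EBP factor, 0.74 in Runx2+/- mice (adjusted p = 0.421), where R-Het mouse 3 stood at 44.9 FPKM and the other two at 13.8 and 15.2. Without R-Het mouse 3 the value of Cebpd was 0.22.

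The call of Junb was kept only when P-Ctrl mouse 1 was left out and lost without any other mouse (log2 fold changes -0.88 to -0.79). Over all genes, 0 to 35 calls of 205 remained in number with 1 mouse left out.

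**Figure D3:**
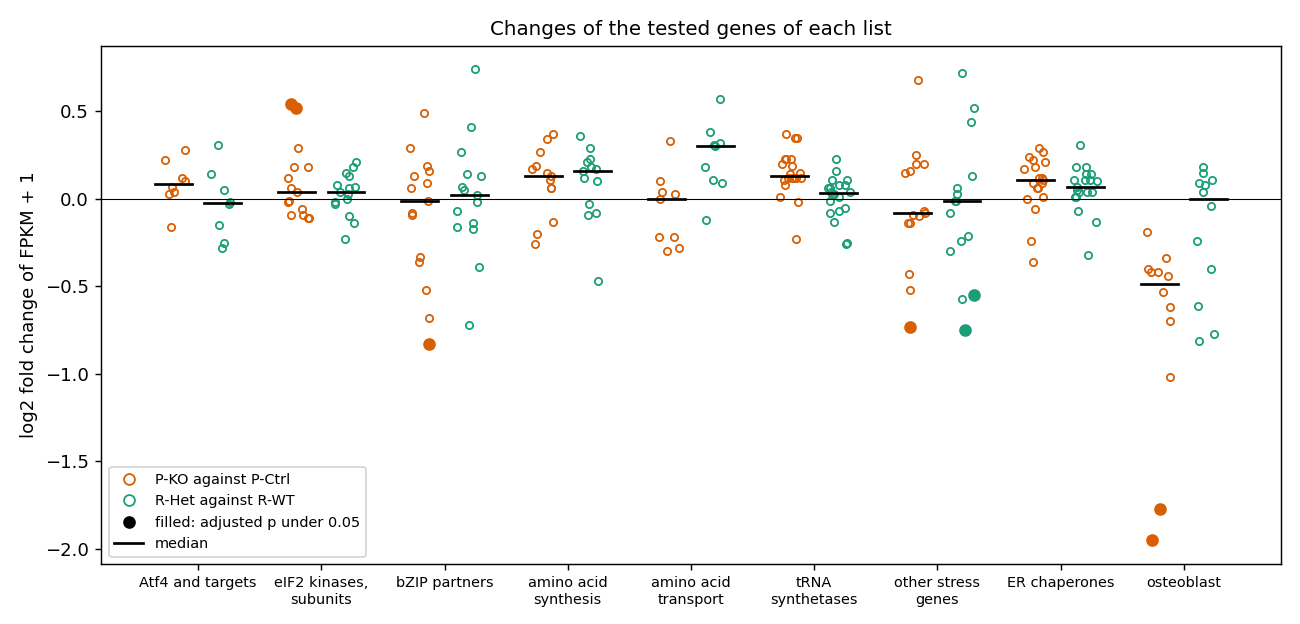
Log2 fold change of FPKM + 1 (vertical axis) of each tested gene (circles) of the 10 genes and of 8 related lists (horizontal axis), in P-KO against P-Ctrl and R-Het against R-WT; filled circles have an adjusted p under 0.05 and black lines are medians. The filled circles are Eif2s1, Eif2s2, Junb, Gadd45a, Bglap and Bglap2 in the first comparison and Gadd45a and Jdp2 in the second.

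Further genes of amino acid supply were not called in either comparison. Of the 15 enzymes of amino acid synthesis and mitochondrial one-carbon metabolism, 13 were tested, with medians of 0.13 in Med23 MSC-/- and 0.16 in Runx2+/- mice on the log2 scale. The largest values in Med23 MSC-/- mice were those of Shmt1, a serine hydroxymethyltransferase (0.37, adjusted p = 0.338), and Psph, the last enzyme of serine synthesis (0.34, adjusted p = 0.171). Those in Runx2+/- mice belonged to Got1, an aspartate aminotransferase (-0.47, adjusted p = 0.123), and Mthfd1l, a mitochondrial formate enzyme (0.36, adjusted p = 0.206). Psph was higher in all Med23 MSC-/- mice (13.2, 11.8 and 12.1 FPKM) than in all controls (8.77, 8.6 and 11.4 FPKM). The same held for Gpt2 and Glul, and for 19.6% of all genes. Mthfd1l was higher in all Runx2+/- mice (5.98, 5.12 and 4.75 FPKM) than in all WT mice (4.15, 4.23 and 3.28 FPKM), beside 10.7% of all genes. Got1 was lower in all Runx2+/- mice (10.9, 9.82 and 11.2 FPKM) than in all WT mice (17.4, 12.4 and 15.9 FPKM), beside 10.4% of all genes. None of these passed the test.

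The amino acid transporters had the highest median of these lists in Runx2+/- mice, 0.30 on the log2 scale (all genes 0.02). Of 9 tested genes, 8 were positive (56.1% of all genes) and 0 called. Their median was 0.00 in Med23 MSC-/- mice with 0 called. Slc38a2, a glutamine transporter, was at 76.1, 75.3 and 76.3 FPKM in WT and 92.7, 95.6 and 162 in Runx2+/- mice (log2 fold change 0.57, adjusted p = 0.22). Slc7a5, the large neutral amino acid transporter, was at 6.13, 5.96 and 4.39 FPKM in WT and 7.16, 7.89 and 7.07 in Runx2+/- mice (log2 fold change 0.38, adjusted p = 0.2). Both transporters thus separated the groups of this set, as did the transporters Slc1a4 and Slc43a1. Of all genes, 10.7% were higher without overlap there. R-Het mouse 3 was far above the others for Slc38a2 (log2 fold change 0.31 without it). Among Runx2+/- mice, the same library held the highest Cebpd and Ddit4 and the lowest Bglap. The largest values in Med23 MSC-/- mice were those of Slc7a5 (0.33, adjusted p = 0.428) and of the glutamine transporter Slc1a5, which was lower at 21, 21.4 and 19.4 FPKM than in controls at 27, 25.1 and 24.3 (log2 fold change -0.30, adjusted p = 0.114). The difference between both comparisons was negative for 9 of 9 transporters and called for 0 (median -0.29, all genes 0.04). Over all genes, 55.7% of these differences were positive.

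The 20 cytosolic aminoacyl-tRNA synthetases, which charge tRNAs and include known ATF4 targets, were all tested and 0 were called in either comparison. The log2 fold change was positive for 18 of 20 in Med23 MSC-/- mice, beside 61.3% of all genes, with a median of 0.13 that shrank to 0.03 when mice were scaled to the same sum. The largest were Farsb, a subunit of the phenylalanine enzyme (0.37, adjusted p = 0.0644), and Dars, the aspartate enzyme (0.35, adjusted p = 0.0763), and both passed the threshold with all 12 mice in 1 fit (adjusted p = 0.0495 and 0.0197). Dars stood at 64.6, 62.6 and 64.6 FPKM in Med23 MSC-/- mice and 53.5, 46.7 and 49.5 in controls. Their median was 0.03 in Runx2+/- mice, and the largest values were those of Farsb (-0.26, adjusted p = 0.341) and Qars, the glutamine enzyme (-0.25, adjusted p = 0.363).

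Of the other stress-induced genes, 15 of 18 were tested. Of these, 0 rose (1.01% of all genes) and 1 fell (0.559%) in Med23 MSC-/- mice (median log2 fold change -0.08). In Runx2+/- mice 0 rose (0.398% of all genes) and 2 fell (1.49%), with a median of -0.01. Gadd45a, which encodes a regulator of growth arrest and of stress kinases, fell in both. It stood at 15.8, 16.4 and 18.1 FPKM in controls and 10.1, 10.2 and 8.95 in Med23 MSC-/- mice (log2 fold change -0.73, SE 0.09, adjusted p = 0.0269). In the other set it stood at 14.7, 19.6 and 14.1 FPKM in WT and 8.49, 9.1 and 9.71 in Runx2+/- mice (log2 fold change -0.75, SE 0.13, adjusted p = 0.0356). The difference between both falls was 0.02 (95% interval -0.33 to 0.38, adjusted p = 0.966).

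Jdp2, a bZIP repressor that binds AP-1 and ATF sites, fell in Runx2+/- mice, from 82.5, 86.2 and 80.2 FPKM to 52.1, 55.4 and 61.9 (log2 fold change -0.55, SE 0.09, adjusted p = 0.0317). In the other set it was at 105, 86.3 and 79.9 FPKM in controls and 68.2, 65.9 and 65.8 in Med23 MSC-/- mice, again without overlap (log2 fold change -0.43, adjusted p = 0.098, and 0.0372 with all 12 mice in 1 fit). Ddit4, which restrains mTORC1, had the largest positive value of Runx2+/- mice (0.72, adjusted p = 0.0988), and Stc2, a secreted glycoprotein, that of Med23 MSC-/- mice (0.68, adjusted p = 0.0936). Stc2 was also higher without overlap in Runx2+/- mice (0.52, adjusted p = 0.322). In Med23 MSC-/- mice Ddit4 overlapped with controls (-0.52, adjusted p = 0.313). Ddit4 was at 45.7, 41.4 and 57.4 FPKM in WT and 66.2, 73.3 and 103 in Runx2+/- mice, and passed the threshold when mice were scaled to the same sum (0.76, adjusted p = 0.0459). The call of Gadd45a in Med23 MSC-/- mice was lost without any 1 of the 6 mice, its call in Runx2+/- mice was kept only without R-WT mouse 2, and that of Jdp2 only without R-Het mouse 3 (log2 fold changes -0.77 to -0.67, -0.83 to -0.61 and -0.62 to -0.49). With 1 mouse left out, the calls over all genes fell from 205 to between 0 and 35 in Med23 MSC-/- mice. They fell from 247 to between 34 and 169 in Runx2+/- mice.

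Chaperones and other factors of the endoplasmic reticulum, which the ATF6 and IRE1 branches of the unfolded protein response control, were called for 0 of 19 genes in both comparisons (medians 0.11 and 0.07). In each comparison 16 of the 19 had a positive log2 fold change (61.3% and 56.1% of all genes). Hsp90b1, Pdia6 and Canx were higher without overlap in Med23 MSC-/- mice (19.6% of all genes) and Xbp1 in Runx2+/- mice (10.7%). Edem1, which sorts misfolded glycoproteins for degradation, was lower without overlap in both sets (7.68% of all genes in the first and 10.4% in the second). It had 20.9, 17.6 and 16.7 FPKM in controls and 14.6, 15.2 and 12.7 in Med23 MSC-/- mice (log2 fold change -0.36, adjusted p = 0.143), and 19.2, 19.3 and 16.9 in WT and 14.8, 14.1 and 14.9 in Runx2+/- mice (-0.32, adjusted p = 0.122). The chaperone Hsp90b1 had a log2 fold change of 0.29 in Med23 MSC-/- mice (adjusted p = 0.122) and the ubiquitin ligase Syvn1 one of 0.31 in Runx2+/- mice (adjusted p = 0.346).

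**Figure D4:**
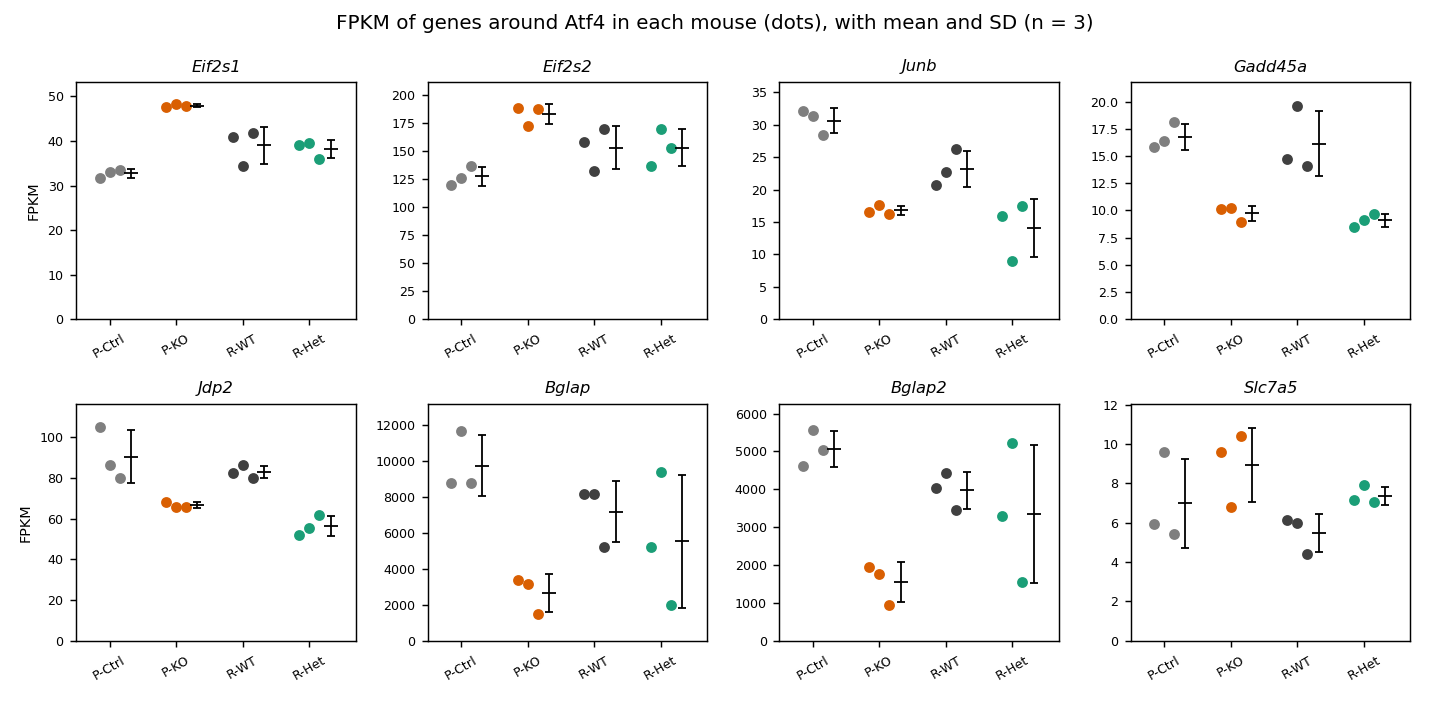
FPKM (vertical axes, linear, from 0) of 8 genes around ATF4 in each mouse (dots), by group (horizontal axes), with the mean and SD of the 3 mice (bars). P-KO lies above P-Ctrl for Eif2s1 and Eif2s2 and below it for Junb, Gadd45a, Jdp2, Bglap and Bglap2, and R-Het lies below R-WT for Junb, Gadd45a and Jdp2.

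Osteocalcin, the osteoblast product that ATF4 and RUNX2 are known to control, fell in Med23 MSC-/- mice, in which Atf4 mRNA overlapped with controls. Runx2 mRNA was lower in all Med23 MSC-/- mice (23.7, 27.7 and 28.7 FPKM) than in all controls (38, 38 and 30.5 FPKM). It was not called (log2 fold change -0.40, adjusted p = 0.127, limma), and 7.68% of all tested genes were lower without overlap. Its part in the fall of osteocalcin was not tested. Bglap stood at 8757, 11663 and 8789 FPKM in controls and 3364, 3156 and 1468 in Med23 MSC-/- mice (log2 fold change -1.95, SE 0.32, adjusted p = 0.0401). Its near-identical neighbour Bglap2, with which it may share reads, stood at 4603, 5556 and 5030 FPKM in controls and 1951, 1752 and 956 in Med23 MSC-/- mice (log2 fold change -1.77, SE 0.26, adjusted p = 0.0327). All Med23 MSC-/- mice lay far below all controls for both. Runx2+/- mice ranged widely, from 1995 to 9377 FPKM of Bglap beside 5197 to 8179 in WT (log2 fold change -0.61, adjusted p = 0.615, and -0.01 without R-Het mouse 3 or -1.12 without R-Het mouse 2), and had a log2 fold change of -0.40 for Bglap2 (adjusted p = 0.674, and 0.07 to -0.80 without the same mice).

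Of the 12 osteoblast genes, 0 rose (1.01% of all genes) and 2 fell (0.559%) in Med23 MSC-/- mice. There all 12 had a negative log2 fold change (median -0.49), where 61.3% of all genes were positive. In Runx2+/- mice 0 were called (median -0.00), beside 1.89% of all genes. The largest values in Runx2+/- mice were those of the matrix proteins Ibsp (-0.81, adjusted p = 0.0551) and Spp1 (-0.77, adjusted p = 0.0746). Both were called when mice were scaled to the same sum (-0.77, adjusted p = 0.0217 and -0.73, adjusted p = 0.016), and Ibsp also without R-WT mouse 2 (adjusted p = 0.0365). The call of Bglap was lost without any 1 of the 6 mice (log2 fold changes -2.16 to -1.57), and that of Bglap2 was kept only without P-KO mouse 3 (-1.96 to -1.45). The calls over all genes fell from 205 to between 0 and 35 in these fits. With the Med23 MSC-/- comparison moved skeletal muscle markers (10 of 10 positive, median log2 fold change 2.99, 0 called, groups overlapping), neural markers (summed 31.1 to 40.2 FPKM in controls and 64 to 64.5 in Med23 MSC-/- mice, 0 of 7 called), cartilage markers (158 to 205 and 91.9 to 107 FPKM, 1 of 8 called, 5 negative and 3 positive) and erythroid markers (15703 to 21386 and 8660 to 14406 FPKM, 0 of 7 called). The called cartilage gene was Col2a1 (-0.86, adjusted p = 0.0404), most of the difference of the cartilage sum lay in Col11a2 (mean 120 to 50.5 FPKM), and Hapln1 was higher without overlap (0.73, adjusted p = 0.0816). The macrophage and osteoclast list was negative for 7 of 7 tested genes in Med23 MSC-/- mice as well (median -0.21, 0 called). Its sums overlapped, at 4457 to 7516 FPKM in controls and 3851 to 5160 in Med23 MSC-/- mice. The part of these cell types in the values above was not tested.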

How the data were processed

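Each of the 12 libraries came with the authors' own FPKM values for RefSeq transcripts, as deposited. The submitters' processing notes name Bowtie 0.12.8 and mm10, and the quantification program is not given in the sources used here. Gene symbols for 29831 of 30411 transcripts came from the NCBI table of GRCm38 and for 184 from GENCODE, and 396 kept their identifier. FPKM values were summed per gene (23715 genes). Those reaching 1 FPKM in 3 or more of the 12 mice (13059) were tested on log2(FPKM + 1), separately for each set, by limma 3.58.1 in R 4.3.3 with a mean-variance trend and Benjamini-Hochberg adjustment at 0.05. The added 1 makes changes of low genes look smaller. A contrast in 1 fit of 12 mice tested the difference between sets. The fit was tested on simulated data. Depth was estimated from the smallest values. Single levels were compared by exact permutation tests (scipy 1.17.1, Python 3.11.15, pandas 2.3.3, numpy 2.4.6, matplotlib 3.10.9).

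The members and gene lists were chosen with earlier results of these data known. Besides the members, the text names per pathway list every called gene and the 2 largest changes of each comparison, marker genes of lists that moved with a result, and the 5 genes most like the members. The minor transcripts of Psat1 and Atf5 were looked at after their values were seen. No batch or date is given. Alternatives were a pseudocount of 0.1, no filter, 1 fit of all mice, a replicate block, scaling to the same median or sum, unmoderated spread, male libraries only and each mouse left out. Further settings for Trib3 and Slc7a11 without the filter were added after seeing the data.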

Additional observations from a re-analysis of the deposited data

How the results depend on the processing

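No setting tried called any of the 8 tested members in either comparison or in the difference between them, and Trib3 and Slc7a11 were not called in any fit without the filter. The main fits called only 1.57% and 1.89% of all genes, and some settings called 0 or 1 gene of the whole table. A steady 0 of 8 therefore does not measure how firm the result is. The log2 fold changes of members near 0 changed sign with the scaling. With the same median in each mouse, that of Atf4 in Med23 MSC-/- mice became -0.00 and that of Ddit3 -0.01. With the same FPKM sum they became -0.06 for Atf4, -0.06 for Ddit3 and -0.03 for Psat1 in Med23 MSC-/- mice, 0.00 for Asns, 0.02 for Psat1 and 0.01 for Eif2s1 in Runx2+/- mice, and -0.00 for Atf5 and -0.05 for Psat1 in the difference between both comparisons. With male libraries only, where 1 control is assumed to vary like the other groups, they became 0.04 for Asns, 0.01 for Eif2s1 and 0.01 for Eif2s3x in Runx2+/- mice, and 0.02 for Atf4, -0.01 for Asns and 0.24 for Phgdh in the difference.

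Leaving out 1 mouse turned further signs. In Med23 MSC-/- mice the values then ranged from -0.02 to 0.11 for Atf4, -0.04 to 0.14 for Ddit3, -0.02 to 0.17 for Psat1 and -0.06 to 0.22 for Phgdh. In Runx2+/- mice they ranged from -0.03 to 0.11 for Atf4, -0.09 to 0.04 for Asns, -0.08 to 0.01 for Psat1, -0.11 to 0.03 for Eif2s1, -0.10 to 0.08 for Eif2s2, -0.41 to 0.01 for Eif2s3x and -0.80 to 0.07 for Bglap2. In the difference they ranged from -0.07 to 0.07 for Atf4 and -0.01 to 0.19 for Psat1.

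The median over the members in the difference between both comparisons, 0.13, was 0.01 with the same sum, 0.23 with male libraries only and 0.03 to 0.18 with 1 mouse left out. In Med23 MSC-/- mice the same sum gave medians of -0.05 for the eIF2 genes, -0.10 for the bZIP partners, 0.03 for amino acid synthesis, 0.03 for tRNA synthetases and -0.18 for the other stress genes (-0.12 with the same median). Male libraries only gave -0.08 for the bZIP partners, 0.25 for synthesis, -0.20 for transport, -0.01 for the other stress genes and -0.07 for the chaperones. With 1 mouse left out, those medians ran from -0.10 to 0.02 for the bZIP partners, -0.16 to 0.06 for transport, 0.10 to 0.20 for tRNA synthetases (0.00 to 0.09 in Runx2+/- mice), -0.11 to -0.02 for the other stress genes and -0.01 to 0.21 for the chaperones.

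The number of genes called over the whole table depended on the setting. In Med23 MSC-/- mice 205 genes were called, 132 higher and 73 lower. It was 1 without the filter, 717 with all 12 mice in 1 fit, 107 with the same sum (42 higher and 65 lower), 65 higher and 78 lower with the same median, 0 with a spread not shared between genes (2356 at an unadjusted p under 0.05), 0 with male libraries only (2153 at an unadjusted p under 0.05) and 0 to 35 with 1 mouse left out. In Runx2+/- mice 247 genes were called. It was 5 without the filter, 95 with all 12 mice in 1 fit, 1 with a spread not shared, 34 with male libraries only and 34 to 169 with 1 mouse left out. The difference was called for 20 genes in limma, 6 without the filter, 37 with the same sum, 1 with a spread not shared, 1 with male libraries only and 2 to 164 with 1 mouse left out. Without the filter or with unshared spread, Eif2s1, Eif2s2, Junb, Gadd45a, Jdp2, Bglap and Bglap2 were not called, and with male libraries only none of these was either. Scaling to the same sum also ended the calls of Gadd45a and Jdp2 in Runx2+/- mice (adjusted p = 0.0756 and 0.0503), and scaling to the same median that of Eif2s2 (adjusted p = 0.0716). Calls were gained by Ddit4, Ibsp and Spp1 in Runx2+/- mice with the same sum (adjusted p = 0.0459, 0.0217 and 0.016), by Ibsp without R-WT mouse 2 (0.0365) and by Dars, Jdp2 and Farsb in Med23 MSC-/- mice with all 12 mice in 1 fit (0.0197, 0.0372 and 0.0495). The cause was not tested.

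The labels give both groups of a set the replicate numbers 1 to 3, but no shared litter or day. Deviations of same-numbered mice correlated at 0.18, 0.259 and 0.0527 in the Med23 MSC-/- set, where each mouse correlated best with its own number. They correlated at 0.00482, -0.0474 and -0.0836 in the Runx2+/- set. Pairs by number are thus possible in the Med23 MSC-/- set, but the labels state none. Both sets were fitted unpaired. With the number as a replicate block, 0 members were called, 181 genes were called higher and 92 lower in Med23 MSC-/- mice, 90 in all in Runx2+/- mice (21 higher and 69 lower) and 136 for the difference. Eif2s2 (adjusted p = 0.0523), and Gadd45a and Jdp2 in Runx2+/- mice (adjusted p = 0.0706 and 0.0995), were not called under the block. The depth limits Slc7a11 and Trib3 most, with 8 to 66 and 11 to 21 estimated fragments per mouse.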
